A study of Rattus norvegicus with 9 samples.

Results

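The Hox genes of rat gastric lymphatic vessel tissue were taken as every gene of the deposited expression table whose symbol is Hox, a cluster letter from a to d and a number. This gave 33 Hox genes among the 18964 genes listed, 10 in the HoxA cluster on chromosome 4, 9 in HoxB on chromosome 10, 7 in HoxC on chromosome 7 and 7 in HoxD on chromosome 3. Poly(A) RNA had been sequenced from 9 libraries of this tissue, 3 in each of 3 groups of male Sprague-Dawley rats of 180 to 220 g, all wild type and all fasted for 12 h. BXD rats spent 4 h in a pool filled to 15 cm and held at 22 °C, a stress that causes gastric ulceration, and were given Banxia Xiexin decoction, a herbal preparation, by gavage at 10 ml per kg after 30 min. Model rats had the same stress and a gavage of saline according to the sample labels, or of distilled water according to the treatment protocol. Control rats were not stressed and, per that protocol, also received distilled water. Each group had 6 rats and the labels do not tie libraries to rats, so that the p-values below measure the spread between these libraries. The data are from whole dissected vessels, in which fewer cells of a type and less RNA per cell cannot be told apart.

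Hox genes encode homeodomain transcription factors that set position along the body axis. Within each cluster the genes are ordered by paralogue number, and low-numbered (anterior) genes are active further towards the head than high-numbered (posterior) genes. Adult fibroblasts, smooth muscle, endothelium and fat keep a Hox code that records where they arose. Hox proteins bind DNA together with TALE homeodomain partners of the Pbx, Meis and Pknox families. Retinoic acid switches on anterior Hox genes, trithorax group proteins such as Kmt2a keep Hox genes active, and Polycomb group proteins keep them silent.

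Windows of 250 bases before the RefSeq start sites on the GRCr8 build were available for 16 Hox genes (17 windows), among them all HoxD genes listed. They are shown for Hoxd10, Hoxd9 and Hoxd3 because the HoxD cluster carried the largest differences described below and because these windows share the palindrome CACGTG, written in capitals. The windows run 5′ to 3′ on the plus strand, at chr3:80001697-80001946 for Hoxd10, chr3:80007756-80008005 for Hoxd9 and chr3:80045876-80046125 for Hoxd3.

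Hoxd10: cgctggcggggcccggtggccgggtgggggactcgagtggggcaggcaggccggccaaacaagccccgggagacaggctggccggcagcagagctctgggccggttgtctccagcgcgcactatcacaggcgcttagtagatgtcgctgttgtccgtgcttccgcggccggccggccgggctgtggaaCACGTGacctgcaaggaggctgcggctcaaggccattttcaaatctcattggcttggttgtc

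Hoxd9: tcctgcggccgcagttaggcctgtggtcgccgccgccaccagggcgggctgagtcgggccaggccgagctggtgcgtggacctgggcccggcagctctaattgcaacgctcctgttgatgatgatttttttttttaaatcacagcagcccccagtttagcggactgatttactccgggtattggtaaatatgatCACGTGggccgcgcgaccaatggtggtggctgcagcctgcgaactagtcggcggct

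Hoxd3: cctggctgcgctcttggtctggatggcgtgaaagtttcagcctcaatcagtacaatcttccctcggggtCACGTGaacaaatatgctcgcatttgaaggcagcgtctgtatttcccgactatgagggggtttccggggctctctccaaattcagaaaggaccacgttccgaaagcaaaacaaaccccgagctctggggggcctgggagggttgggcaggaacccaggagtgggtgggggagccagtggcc

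CACGTG reads the same on both strands and is the core of the E-box bound by basic helix-loop-helix factors. Its first base lay at -62, -56 and -181 from the start site of Hoxd10, Hoxd9 and Hoxd3. It was present in 7 of the 17 Hox windows (Hoxd10, Hoxd9, Hoxd3, Hoxd1, Hoxa4, Hoxa7 and Hoxa9), in neither the Hoxd4 nor the Hoxd8 window, and in 5.59% of 33469 windows of the same length over all genes. It was chosen after the windows had been read. The GC content of the windows shown was 67.2% for Hoxd10, 60.0% for Hoxd9 and 57.2% for Hoxd3, against a median of 51.2% over all windows. The Pbx-Hox motif TGATNNAT, searched on both strands, occurred in 1 Hox window (Hoxa2) and in 7.96% of all windows, and the Meis motif TGACAG in 3 Hox windows and 15.8% of all. The CCAAT box occurred in 9 Hox windows and 34.0% of all, and TATAAA in 4 and 12.9%. A letter match in a window is a description only.

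Library totals ran from 12313813 to 13455705 estimated counts. Of the 33 Hox genes, 28 passed the filter on low counts and were tested. The other 5 (Hoxa11, Hoxb13, Hoxc11, Hoxd1 and Hoxd13) had between 1 and 7 estimated counts over all 9 libraries together. Lymphatic endothelial markers were present in every library, with a summed level of 1207 to 1760 CPM (counts scaled to library size) in BXD, 805.5 to 1448 CPM in model and 818.2 to 949.5 CPM in control. Markers of gastric mucosa summed to at most 2.203 CPM in any library, and 0 of 8 could be tested. Fibroblast markers summed to 14990 to 19460 CPM in BXD, 10800 to 15170 CPM in model and 17130 to 25750 CPM in control. Connective tissue transcripts were thus present beside endothelial ones.

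On a per-length scale, in FPKM (fragments scaled by transcript length and library depth, as deposited), the summed level of all 33 Hox genes was 87.8, 96.34 and 120.0 in the BXD libraries. It was 118.5, 85.78 and 92.84 in the model libraries, and 182.3, 201.9 and 215.0 in the control libraries. The means were 101.4 ± 16.7 FPKM in BXD, 99.1 ± 17.2 FPKM in model and 199.7 ± 16.5 FPKM in control (SD, n = 3), and no library of the stressed groups reached the lowest control library. Hoxd8, Hoxd9 and Hoxb7 held the first 3 ranks in all 3 groups. Hoxd8 averaged 15.3 ± 2.44 FPKM in BXD, 15.3 ± 0.25 in model and 36.6 ± 2.90 in control (SD, n = 3), and its 3 control libraries lay above every value of any other Hox gene. Hoxc9 and Hoxc10 stood among the first 8 in model, at ranks 6 and 7, and in neither BXD nor control.

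**Figure D1:**
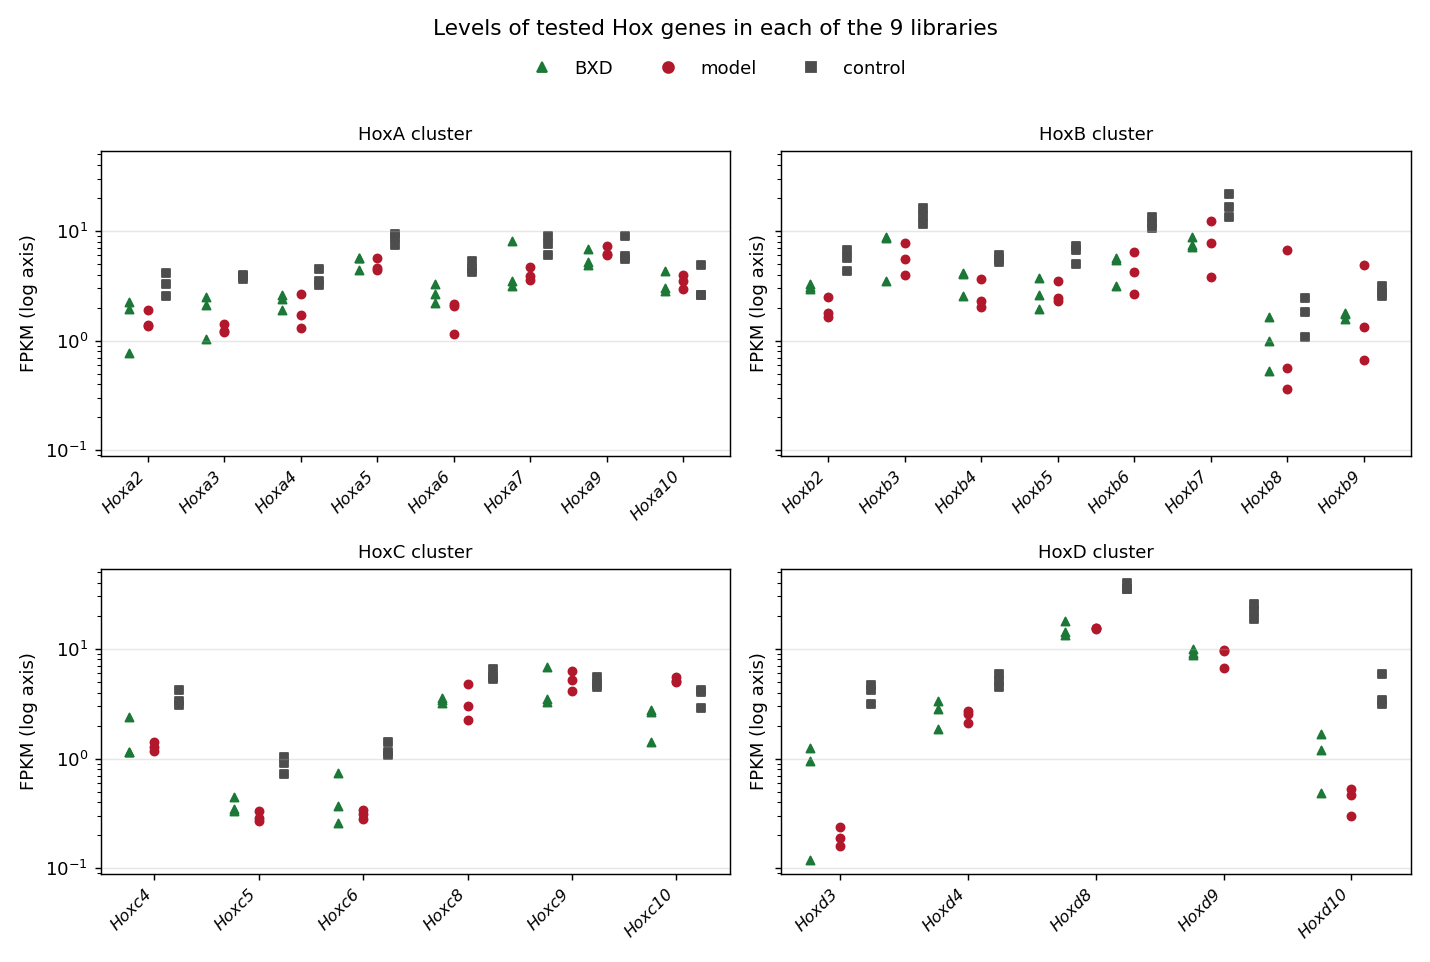
FPKM (log axis) of tested Hox genes in each of the 9 libraries, by cluster, with BXD triangles left, model circles in the middle and control squares on the right. The control squares lie above both other groups for most genes, whereas Hoxa9, Hoxa10, Hoxb8 and Hoxc9 overlap, and model replicate 1 stands alone at 6.63 FPKM for Hoxb8.

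In model against control, 16 of the 28 tested Hox genes were lower and 0 were higher at an adjusted p under 0.05 in edgeR's quasi-likelihood test with Benjamini-Hochberg adjustment over all 14643 tested genes, the rule by which a gene is called here. The called share of all genes was 42.2%, made up of 20.6% lower and 21.6% higher. At an unadjusted p under 0.05 there were 19 Hox genes, against 51.5% of all genes. The median log2 fold change of the Hox genes was -0.93, against -0.01 over all genes, and 23 of the 28 values were negative. FPKM of the model libraries lay wholly below control for 22 Hox genes, against 42.6% of all genes, and wholly above control for 1 (Hoxc10), against 16.7%. FPKM is not corrected for library composition as the tested values are. On log2(FPKM + 0.1), the median of all genes in this comparison lies at -0.27, so FPKM ratios run below the fitted fold changes. Leaving out control replicate 2 or model replicate 3 took the number of called Hox genes to 10. Calls over all genes ran from 4317 to 6890 over the left-out libraries.

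In BXD against control, 12 Hox genes were lower and 0 were higher, against 30.3% of all genes called, 14.3% lower and 16.1% higher. An unadjusted p under 0.05 was reached by 15 Hox genes, against 42.7% of all genes. The Hox median was -0.75 and that of all genes -0.02, and 27 values were negative. FPKM of the BXD libraries lay wholly below control for 23 Hox genes, against 37.4% of all genes, and wholly above for 0, against 13.6%. Without control replicate 1, 2 or 3 the count of Hox calls was 7, 4 or 4, and without BXD replicate 2 it was 6. Calls over all genes ran from 2728 to 4775 over the left-out libraries. The control libraries are shared by both comparisons, so the lists are not independent. Hoxa3, Hoxb5, Hoxb6, Hoxc4, Hoxc5, Hoxc6, Hoxd3, Hoxd4, Hoxd8, Hoxd9 and Hoxd10 (11 genes) were called lower in each, and Hoxa5, Hoxa6, Hoxb2, Hoxb3 and Hoxb4 (5 genes) in model alone. The calls of Hoxd4, Hoxd8 and Hoxd9 stood in both comparisons under all alternatives tried.

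In BXD against model, 0 Hox genes were called by edgeR, against 0.0615% of all genes (0.0546% higher and 0.00683% lower), and 4 (Hoxb2, Hoxc10, Hoxd3 and Hoxd10) had an unadjusted p under 0.05, against 20.9% of all genes. DESeq2 called 1 of them, Hoxc10, but it also called many more of all genes in this comparison than edgeR did, as counted in the closing section. The median log2 fold change was 0.04 over the Hox genes and -0.01 over all genes. A p that misses the threshold does not show that the groups were alike, and the standard errors below give the size of difference that 3 libraries could resolve.

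**Figure D2:**
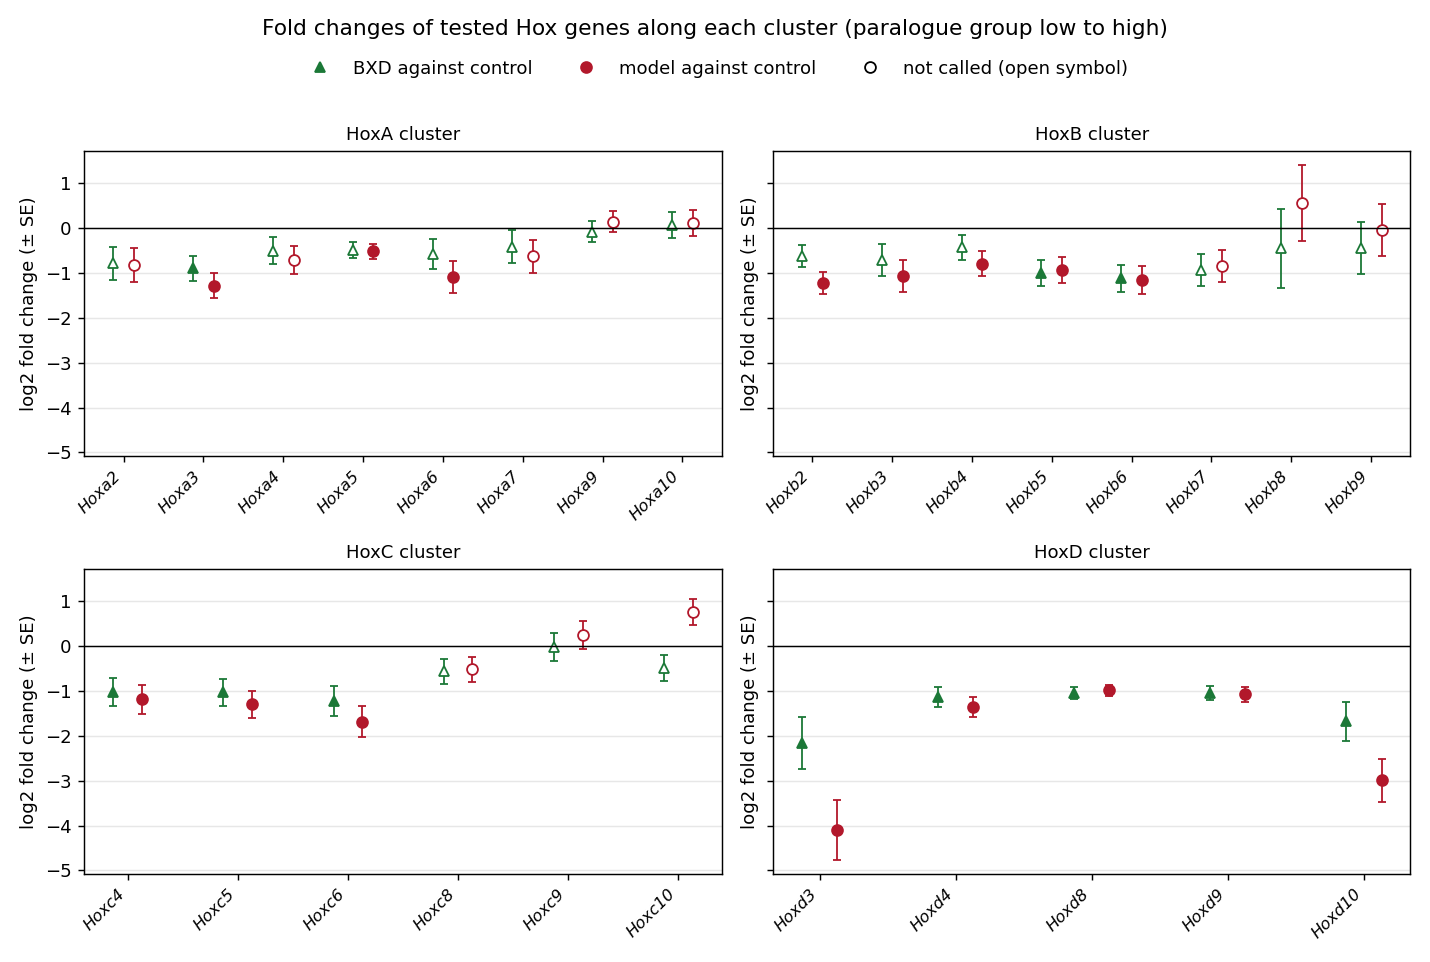
Log2 fold change (± SE, edgeR) of tested Hox genes in BXD against control (green triangles) and model against control (red circles), ordered along each cluster from low to high paralogue number. Filled symbols are called at an adjusted p under 0.05; all HoxD symbols are filled and below 0, and the red circles reach or pass 0 only at Hoxa9, Hoxa10, Hoxb8, Hoxc9 and Hoxc10.

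HoxD was the cluster in which every tested gene was called lower in both stressed groups. Its 5 tested members had a median log2 fold change of -1.36 in model and -1.13 in BXD against control. Hoxd3 (gene 288152, chromosome 3, 61650569 to 61670285 on Rnor_6.0) belongs to a paralogue group that patterns the neck, and in human endothelial cells it promotes the invasive, angiogenic state. Its level was 0.12, 0.96 and 1.26 FPKM in BXD, 0.24, 0.16 and 0.19 FPKM in model and 3.17, 4.24 and 4.64 FPKM in control. All stressed libraries lay far below control, and BXD replicate 1 lay with the model libraries while BXD replicates 2 and 3 lay between the groups. Against control the fitted log2 change was -4.10 in model (SE 0.67, edgeR adjusted p = 0.00203) and -2.17 in BXD (SE 0.57, adjusted p = 0.0203). These levels rest on few reads, with 3, 25 and 35 estimated counts in BXD, 6, 4 and 5 in model and 83, 119 and 120 in control. In BXD the call was lost without control replicate 2 (-2.13, adjusted p = 0.057) or 3 (-2.06, adjusted p = 0.0611).

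Hoxd10 (gene 303991, 61614133 to 61617342) is a limb and lumbar patterning gene that in human endothelium holds cells quiescent. It stood at 1.20, 0.49 and 1.67 FPKM in BXD, 0.47, 0.30 and 0.53 FPKM in model and 3.17, 3.43 and 5.89 FPKM in control. Every control library exceeded every stressed library, and BXD overlapped model at its lowest value. It fell by 2.99 on the log2 scale in model (SE 0.48, adjusted p = 0.0019 in edgeR), which is 7.96-fold lower. In BXD it was 3.21-fold lower (log2 fold change -1.68, SE 0.44, adjusted p = 0.0188), and this call was lost without control replicate 3 (-1.35, adjusted p = 0.0745). BXD libraries had 24, 10 and 35 estimated counts of Hoxd10, model libraries 9, 6 and 11 and control libraries 64, 72 and 118.

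Hoxd8 (gene 100912936, 61627329 to 61629743), which in mouse is induced by the lymphatic regulator Prox1, was the most abundant Hox transcript. It measured 14.37, 13.50 and 18.10 FPKM in BXD, 15.45, 15.02 and 15.47 FPKM in model and 34.81, 35.11 and 39.98 FPKM in control. The stressed groups overlapped each other and stayed clear of control. Against control it fell by 0.99 on the log2 scale in model (SE 0.13, edgeR adjusted p = 0.000769) and by 1.05 in BXD (SE 0.13, adjusted p = 0.00099). Hoxd9 (gene 688999, 61620192 to 61622599), its neighbour, showed the same layout, at 9.10, 8.72 and 9.88 FPKM in BXD, 9.80, 6.73 and 9.58 FPKM in model and 18.56, 21.94 and 25.75 FPKM in control. It was 2.12-fold lower in model (adjusted p = 0.00149) and 2.07-fold lower in BXD (adjusted p = 0.0023). Hoxd4 (gene 288153, 61634005 to 61653581), a hindbrain and neck gene with a known retinoic acid enhancer in mouse, was at 1.87, 2.86 and 3.33 FPKM in BXD, 2.54, 2.09 and 2.69 FPKM in model and 4.52, 5.12 and 5.88 FPKM in control. It was 2.56-fold lower in model (adjusted p = 0.00224) and 2.19-fold lower in BXD (adjusted p = 0.00634). Hoxd3 and Hoxd4 overlap by 3013 bases in the authors' annotation and the strand used in counting is not given, so reads of the shared stretch could belong to either.

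**Figure D3:**
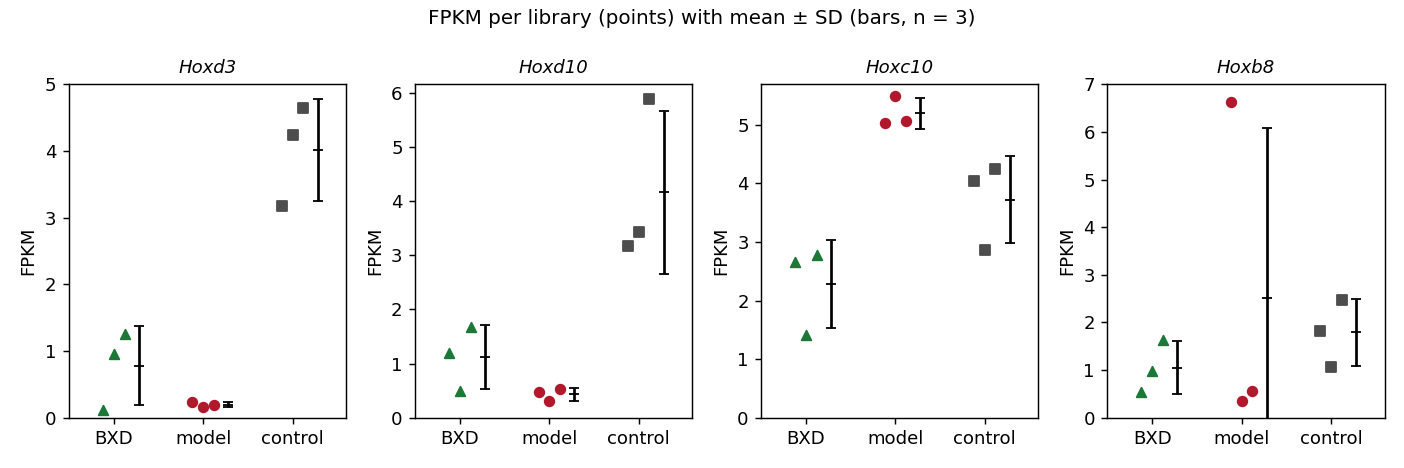
FPKM of Hoxd3, Hoxd10, Hoxc10 and Hoxb8 in each library (points) with the mean ± SD of each group (bars, n = 3), BXD left, model in the middle and control right. Hoxd3 and Hoxd10 are high in control and lowest in model, Hoxc10 is highest in model at 5.03 to 5.50 FPKM, and Hoxb8 is spread by model replicate 1, the lower end of its model bar lying below the axis.

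In the HoxC cluster, Hoxc4, Hoxc5 and Hoxc6 were called lower in both stressed groups, and Hoxc8, Hoxc9 and Hoxc10 were called in neither. Hoxc4 (gene 24459), a spinal cord and lymphoid gene, was at 1.14, 1.16 and 2.38 FPKM in BXD, 1.28, 1.41 and 1.18 FPKM in model and 3.38, 4.22 and 3.11 FPKM in control. Hoxc5 (gene 315341) was at 0.45, 0.35 and 0.33 FPKM in BXD, 0.33, 0.29 and 0.27 FPKM in model and 0.73, 1.04 and 0.92 FPKM in control. Hoxc6 (gene 252885), a thoracic and forelimb-level gene, was at 0.26, 0.37 and 0.74 FPKM in BXD, 0.31, 0.34 and 0.28 FPKM in model and 1.15, 1.43 and 1.08 FPKM in control. For all 3 genes the control libraries lay above the other 6. The log2 fold changes in model were -1.19 for Hoxc4, -1.31 for Hoxc5 and -1.69 for Hoxc6, with adjusted p of 0.0167, 0.00975 and 0.00505 in edgeR. In BXD they were -1.03, -1.03 and -1.22, with adjusted p of 0.0366, 0.0294 and 0.0231. Single libraries decided some of these calls. In BXD, Hoxc4 was not called without any one of the control libraries, model replicate 1 or BXD replicate 1 or 2 (adjusted p 0.0507 to 0.114). Hoxc5 was not called without any one of the control libraries or BXD replicate 2 or 3 (0.0548 to 0.104), and Hoxc6 without control replicate 1 or 2 or BXD replicate 2 (0.0585 to 0.0789). In model, Hoxc4 was not called without control replicate 2 (adjusted p = 0.0549) or model replicate 3 (adjusted p = 0.0554).

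Hoxc8 (gene 24460), a thoracic patterning gene also expressed in white fat, was at 3.39, 3.18 and 3.56 FPKM in BXD, 4.82, 2.25 and 3.03 FPKM in model and 5.34, 5.50 and 6.54 FPKM in control. In FPKM neither stressed group overlapped with control. In CPM scaled as for the test, model replicate 1 (4.91 CPM) lay above control replicates 1 and 2 (4.61 and 4.545 CPM). The log2 fold changes of Hoxc8, -0.53 in model and -0.57 in BXD, were not called (adjusted p = 0.161 and 0.153 in edgeR). Without model replicate 1 the model value was -0.88 with an adjusted p of 0.0272. Hoxc9 (gene 368178) was at 3.47, 3.26 and 6.83 FPKM in BXD, 6.26, 5.24 and 4.16 FPKM in model and 4.47, 5.59 and 4.82 FPKM in control, and all groups overlapped. Its log2 fold change was 0.25 (SE 0.31) in model and -0.03 (SE 0.31) in BXD.

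Hoxc10 (gene 315338, chromosome 7, 144577578 to 144582802), a lumbar patterning gene that in mouse restrains the browning of white fat, was the Hox gene whose model libraries lay wholly above control. It stood at 2.66, 1.41 and 2.77 FPKM in BXD, 5.03, 5.50 and 5.06 FPKM in model and 4.05, 2.87 and 4.24 FPKM in control. In FPKM the model libraries lay above all others and the BXD libraries below all others. In CPM scaled as for the test, control replicate 2 (3.96 CPM) lay below BXD replicates 1 and 3 (4.51 and 4.45 CPM). Against control the log2 fold change was 0.75 in model (SE 0.29, adjusted p = 0.0611 in edgeR) and -0.50 in BXD (SE 0.29, adjusted p = 0.225). Leaving out BXD replicate 2 brought the model value to 0.73 with an adjusted p of 0.0308. In BXD against model the log2 fold change was -1.24 (SE 0.29, adjusted p = 0.103), the smallest adjusted p of any Hox gene in that comparison. DESeq2's Wald test called it (log2 fold change -1.25, adjusted p = 0.00493), while over all alternatives the adjusted p ran from 0.00493 to 0.25. That Wald test called many more of all genes in this comparison than edgeR did. In the authors' deposited table its log2 fold change was -1.25 with a q-value of 0.0192.

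In HoxB, Hoxb2 to Hoxb6 were called lower in model, and Hoxb7, Hoxb8 and Hoxb9 were not called. Hoxb2 (gene 100361765), a hindbrain gene, was at 3.10, 3.25 and 2.97 FPKM in BXD, 2.48, 1.66 and 1.78 FPKM in model and 4.32, 6.67 and 5.69 FPKM in control. Its groups were fully separated, with BXD between the other groups. It was 2.34-fold lower in model than in control (adjusted p = 0.00485 in edgeR), and not called in BXD against control (log2 fold change -0.63, adjusted p = 0.0749) or BXD against model (0.60, SE 0.25, adjusted p = 0.214). Hoxb3 (gene 303488), the most abundant anterior Hox gene, was at 3.50, 8.67 and 8.74 FPKM in BXD, 7.82, 3.97 and 5.56 FPKM in model and 11.56, 16.04 and 13.54 FPKM in control. Both stressed groups were spread widely yet stayed under control. Hoxb4 (gene 497988), which in mouse expands blood stem cells, was at 2.57, 4.04 and 4.12 FPKM in BXD, 3.67, 2.28 and 2.02 FPKM in model and 5.16, 5.52 and 6.05 FPKM in control. The log2 fold change in model was -1.08 (adjusted p = 0.0386) for Hoxb3 and -0.80 (adjusted p = 0.0423) for Hoxb4. Both calls were lost without any one of the control libraries or without model replicate 2 or 3, and that of Hoxb4 also without BXD replicate 2 or 3, with adjusted p of 0.0588 to 0.126 for Hoxb3 and 0.0512 to 0.123 for Hoxb4. In BXD neither was called (-0.71 and -0.44, adjusted p = 0.159 and 0.252).

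Hoxb5 (gene 497987), active in enteric neuron precursors and in mouse vessel precursors, was at 1.94, 2.58 and 3.70 FPKM in BXD, 3.51, 2.45 and 2.28 FPKM in model and 4.96, 7.26 and 6.75 FPKM in control. Hoxb6 (gene 497986) was at 3.15, 5.47 and 5.64 FPKM in BXD, 6.41, 2.66 and 4.25 FPKM in model and 10.64, 11.70 and 13.34 FPKM in control. Both genes were below control in all 6 stressed libraries. Hoxb5 was 1.91-fold lower in model (adjusted p = 0.0289 in edgeR) and 2.00-fold lower in BXD (adjusted p = 0.0282), and Hoxb6 2.24-fold lower in model (adjusted p = 0.0147) and 2.17-fold lower in BXD (adjusted p = 0.0222). The Hoxb5 call in model was lost without control replicate 2 or 3 or model replicate 2 or 3 (adjusted p 0.0757 to 0.0903), and that in BXD without control replicate 2 or 3 or BXD replicate 1 or 2 (0.0653 to 0.09). The Hoxb6 call in BXD was lost without control replicate 2 or 3 or BXD replicate 1 (0.0511 to 0.0711). Hoxb3 overlaps Hoxb4, Hoxb5 and Hoxb6 by 2583, 2209 and 8333 bases, so their counts are not fully separate.

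The high-numbered HoxB genes differed among the model libraries. Hoxb7 (gene 497985), a growth-promoting factor of mesenchyme, was at 7.15, 7.37 and 8.76 FPKM in BXD, 12.43, 3.82 and 7.78 FPKM in model and 13.52, 16.38 and 21.80 FPKM in control. Hoxb8 (gene 24457), a trunk gene that in mouse also acts in myeloid cells, was at 0.53, 0.99 and 1.63 FPKM in BXD, 6.63, 0.36 and 0.56 FPKM in model and 1.83, 1.07 and 2.47 FPKM in control. Hoxb9 (gene 287647), a thoracic gene, was at 1.75, 1.59 and 1.80 FPKM in BXD, 4.88, 1.33 and 0.66 FPKM in model and 2.74, 3.17 and 2.55 FPKM in control. Model replicate 1 was the highest model library for each of the 3 genes, and for Hoxb8 and Hoxb9 it was the highest of all 9 libraries. The log2 fold changes in model, -0.85, 0.56 and -0.05, were not called (adjusted p = 0.0774, 0.614 and 0.954 in edgeR), nor were those in BXD (-0.94, -0.46 and -0.46, adjusted p = 0.0696, 0.72 and 0.585). Without model replicate 1 the model values became -1.33 for Hoxb7 (adjusted p = 0.0129), -1.61 for Hoxb8 (adjusted p = 0.0342) and -1.15 for Hoxb9 (adjusted p = 0.0632). That library held 72 estimated counts of Hoxb8, against 6 and 7 in the other model libraries. It also held the most mesothelium marker transcript, 29.8 CPM of Msln against 1.70 and 1.29 in the other model libraries, 6.66 CPM of Upk3b against 0.27 and 0, and 6.39 CPM of Lrrn4 against 0.54 and 0.23. The 5 mesothelium markers summed to 4.79 to 6.57 CPM in BXD, 6.99 to 54.66 CPM in model, with the highest in replicate 1, and 2.66 to 4.61 CPM in control. Their part in the HoxB levels of that library was not tested. Hoxb7 was called in BXD without model replicate 1 (adjusted p = 0.0295) or 2 (adjusted p = 0.0238).

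The listed levels of several HoxA genes may understate their totals. The Rnor_6.0 table holds 7 further entries, on chromosome 4 or a separate scaffold, with counts identical to Hoxa3, Hoxa4, Hoxa5, Hoxa9 or Hoxa10 in all 9 libraries, and a further entry named for Hoxa2. With these added, Hoxa5 stood at 15.7 ± 2.22 FPKM in BXD, 14.6 ± 2.16 FPKM in model and 25.45 ± 3.02 FPKM in control (SD, n = 3), and Hoxa9 at 16.95 ± 3.26 FPKM in BXD, 19.5 ± 1.96 FPKM in model and 20.5 ± 5.82 FPKM in control. The added entries of Hoxa5 and Hoxa9 repeat the listed counts, so adding them could hardly move their log2 fold changes in model (-0.53 and 0.14). The values per library that follow are those listed.

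Hoxa2 (gene 108348165), a branchial arch selector gene, was at 2.25, 1.96 and 0.78 FPKM in BXD, 1.91, 1.37 and 1.40 FPKM in model and 2.57, 4.17 and 3.31 FPKM in control. It was not called as listed in edgeR (-0.83 in model and -0.79 in BXD, adjusted p = 0.101 and 0.135), but was called in model without BXD replicate 3 (adjusted p = 0.0253). With its other entry added it was called in both (-0.94 and -0.66, adjusted p = 0.00704 and 0.0361). Hoxa3 (gene 103690130), needed for the thymus and parathyroid in mouse, was at 1.03, 2.11 and 2.50 FPKM in BXD, 1.22, 1.42 and 1.20 FPKM in model and 3.62, 4.00 and 3.87 FPKM in control. It was called in model (-1.29, SE 0.28, adjusted p = 0.0071) and in BXD (-0.90, SE 0.28, adjusted p = 0.0361). The BXD call was lost without any one of the control libraries, model replicate 1 or BXD replicate 2 (adjusted p 0.05 to 0.0925). Hoxa3 overlaps Hoxa4 by 2084 bases and Hoxa6 by 8359 bases. A further entry with counts identical to Hoxa5 also lies within Hoxa3 and overlaps Hoxa6. The counts of Hoxa3, Hoxa4, Hoxa5 and Hoxa6 are therefore not fully separate.

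Hoxa4 (gene 100912525) was at 1.91, 2.61 and 2.42 FPKM in BXD, 1.30, 2.64 and 1.72 FPKM in model and 3.52, 4.52 and 3.22 FPKM in control, and was not called (-0.72 in model, adjusted p = 0.0898 in edgeR). Without model replicate 2 it was -1.09 with an adjusted p of 0.0221. Hoxa5 (gene 79241), which patterns the airways in mouse and holds human endothelium quiescent, was at 4.38, 5.69 and 5.63 FPKM in BXD, 4.36, 5.69 and 4.55 FPKM in model and 9.33, 8.75 and 7.37 FPKM in control. Hoxa6 (gene 685732) was at 3.25, 2.22 and 2.68 FPKM in BXD, 2.14, 2.08 and 1.15 FPKM in model and 4.48, 4.24 and 5.36 FPKM in control. Neither gene overlapped control in any stressed library. They were called in model (Hoxa5 -0.53, adjusted p = 0.037; Hoxa6 -1.09, adjusted p = 0.0333) and not in BXD (-0.49 and -0.58, adjusted p = 0.0582 and 0.225). The model call of Hoxa5 was lost without control replicate 1 or 2 or model replicate 1 or 3 (adjusted p 0.0822 to 0.118), and that of Hoxa6 without any one of the control libraries or model replicate 2 or 3 (0.0512 to 0.0979). In BXD, Hoxa5 was called without model replicate 2 (adjusted p = 0.031) and with its other entries added (adjusted p = 0.0461). Hoxa7 (gene 500126) was at 3.16, 3.49 and 8.15 FPKM in BXD, 3.56, 4.72 and 3.90 FPKM in model and 6.03, 9.04 and 7.67 FPKM in control. BXD replicate 3 lay among the control libraries, and Hoxa7 was not called in either (-0.64 in model and -0.42 in BXD, adjusted p = 0.189 and 0.41). Without BXD replicate 3 the BXD value was -0.96 with an adjusted p of 0.0482.

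The posterior HoxA genes were called in neither stressed group. Hoxa9 (gene 297099), known for blood stem cells and for endothelium, was at 6.89, 4.87 and 5.19 FPKM in BXD, 6.07, 6.20 and 7.26 FPKM in model and 9.07, 5.53 and 5.92 FPKM in control. Hoxa10 (gene 103692129), a patterning gene of the uterus and lumbar spine, was at 2.82, 3.04 and 4.29 FPKM in BXD, 2.94, 3.49 and 4.00 FPKM in model and 4.88, 2.61 and 2.59 FPKM in control. All groups overlapped for both genes. The log2 fold changes were 0.14 (SE 0.23) and 0.11 (SE 0.28) in model and -0.09 (SE 0.23) and 0.06 (SE 0.28) in BXD.

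Set out by position along the clusters, the Hox genes called in model against control were mostly anterior and central, as were the tested Hox genes. In that comparison, 4 of 6 tested anterior genes (groups 1 to 3) were called lower, 10 of 15 central genes (4 to 8) and 2 of 7 posterior genes (9 to 13), with medians of -1.15, -0.93 and 0.11, against 20.6% of all genes called lower. The 2 posterior calls were Hoxd9 and Hoxd10. The 5 posterior genes of HoxA, HoxB and HoxC gave 0 calls, and their log2 fold changes ran from -0.05 (Hoxb9) to 0.75. Without model replicate 1 the value of Hoxb9 was -1.15 (adjusted p = 0.0632 in edgeR). In BXD against control the counts were 3, 7 and 2, with medians of -0.84, -0.94 and -0.46, against 14.3% of all genes called lower. By cluster, HoxA, HoxB, HoxC and HoxD gave 3 of 9, 5 of 8, 3 of 6 and 5 of 5 calls in model, and 2, 2, 3 and 5 in BXD. The counts of 3 for HoxA in model, of 2 for HoxA and HoxB in BXD and of 2 for posterior genes are not far from the shares over all genes. No difference between clusters or positions was tested over the genes, since genes of 1 cluster are not independent.

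The contrast between paralogues was measured within each library as the log2 ratio of FPKM. For Hoxd10 over Hoxc10 it was -1.15, -1.52 and -0.73 in BXD, -3.42, -4.20 and -3.26 in model and -0.35, 0.26 and 0.47 in control, without overlap between any of the groups. The mean difference was -3.75 in model against control, -1.26 in BXD against control and 2.49 in BXD against model. Hoxd3 over Hoxb3 differed by -3.07 in model and -1.83 in BXD against control, and Hoxd9 over Hoxc9 by -1.41 and -1.03. All of these comparisons had p = 0.1 in a two-sided exact permutation test, the smallest that 3 libraries against 3 can give. Over the 18 ratio tests made, which were chosen with results of these data known, the Benjamini-Hochberg adjusted value for these was 0.129, and the exact test cannot pass 0.05 here. In BXD against model the groups overlapped for Hoxd3 over Hoxb3 (mean difference 1.23, exact p = 0.2) and Hoxd9 over Hoxc9 (0.38, exact p = 0.3). They also overlapped for Hoxd9 over Hoxa9 and Hoxd3 over Hoxa3 (exact p = 0.2 and 0.3), but not for Hoxd10 over Hoxa10 (exact p = 0.1).

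As a share of the summed Hox FPKM, HoxD made up 28.85 ± 1.44% in BXD, 27.7 ± 3.38% in model and 36.0 ± 1.91% in control (SD, n = 3). The control libraries lay at 34.6 to 38.2% and the other 6 at 24.0 to 30.7%. HoxC made up 12.3 ± 1.96% in BXD, 16.0 ± 1.32% in model and 10.1 ± 0.45% in control, and its model libraries exceeded the others. HoxB held 31.1 ± 4.13%, 29.6 ± 9.72% and 32.4 ± 2.05% in BXD, model and control, with model replicate 1 at 40.4%, and HoxA 27.7 ± 1.69%, 26.7 ± 6.20% and 21.5 ± 2.80%. Posterior genes made up 27.7 ± 3.79% in BXD, 32.5 ± 1.99% in model and 24.1 ± 1.72% in control. With the further HoxA entries added, HoxA became the largest cluster in every group, at 44.8% in BXD, 43.9% in model and 35.7% in control, and HoxD held 22.0%, 21.0% and 29.5%. These shares are a description and carry no test.

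**Figure D4:**
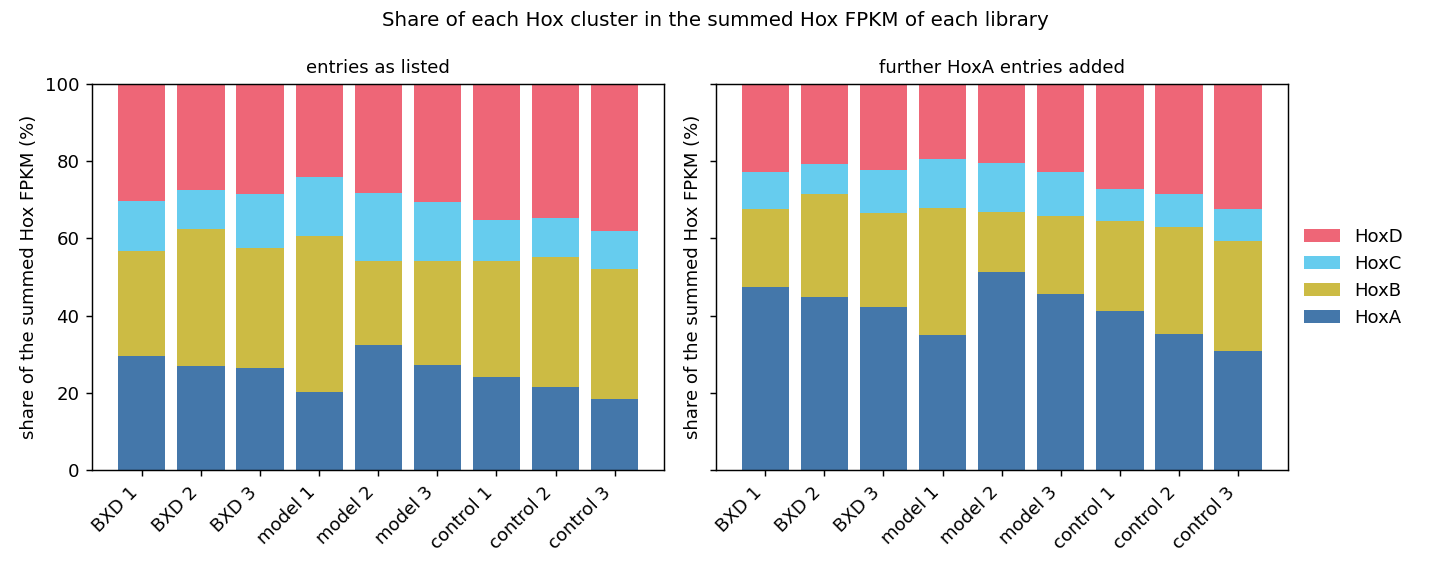
Share (%) of the HoxA, HoxB, HoxC and HoxD clusters in the summed Hox FPKM of each library, as listed (left) and with the further HoxA entries added (right). HoxD fills 34.6 to 38.2% of the control bars and 24.0 to 30.7% of the others on the left, and HoxA grows in every bar on the right.

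In BXD against model, the anterior and posterior ends of HoxD and the posterior end of HoxC had the largest differences, and none was called by edgeR. Hoxd3 was 1.93 higher on the log2 scale in BXD (SE 0.68, adjusted p = 0.165) and Hoxd10 1.31 higher (SE 0.49, adjusted p = 0.176). Without BXD replicate 1 the value for Hoxd3 was 2.43 with an adjusted p of 0.0388, and over all alternatives its adjusted p ran from 0.0388 to 0.364. Hoxd8, Hoxd9 and Hoxd4 differed by -0.06 (SE 0.13), 0.03 (SE 0.16) and 0.23 (SE 0.23). The 5 posterior genes of HoxA, HoxB and HoxC had log2 fold changes of -1.24 to -0.05 in BXD against model, and 0 of them were called by edgeR. The value of Hoxb9, -0.41, turned to 0.69 without model replicate 1, and that of Hoxa10 ran from -0.25 to 0.06 over the left-out libraries. FPKM of BXD lay wholly above model for Hoxa6 and Hoxb2 and wholly below for Hoxc10, against 12.3% and 8.71% of all genes.

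Several partners of Hox proteins were called lower as well. Of 8 tested TALE genes, 5 were called lower in model and 4 in BXD against control, with 0 called higher, and their medians were -0.48 and -0.49. Meis1, which keeps Hox targets active in blood and heart development, was at 5.27, 4.31 and 6.05 FPKM in BXD, 3.89, 3.26 and 4.01 FPKM in model and 12.26, 14.16 and 12.21 FPKM in control. It was 2.81-fold lower in model (adjusted p = 0.000358 in edgeR) and 2.09-fold lower in BXD (adjusted p = 0.00143). Meis2, its close paralogue, was at 7.08, 5.95 and 4.77 FPKM in BXD, 4.37, 4.12 and 4.95 FPKM in model and 8.87, 11.35 and 11.22 FPKM in control, 1.96-fold lower in model (adjusted p = 0.00282) and 1.53-fold lower in BXD (adjusted p = 0.0243). Pbx2 averaged 12.7 ± 1.17 FPKM in BXD, 13.2 ± 1.56 FPKM in model and 24.65 ± 2.57 FPKM in control (SD, n = 3), with adjusted p of 0.00261 in model and 0.00188 in BXD. For all 3 genes the control libraries lay above the other 6.

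**Figure D5:**
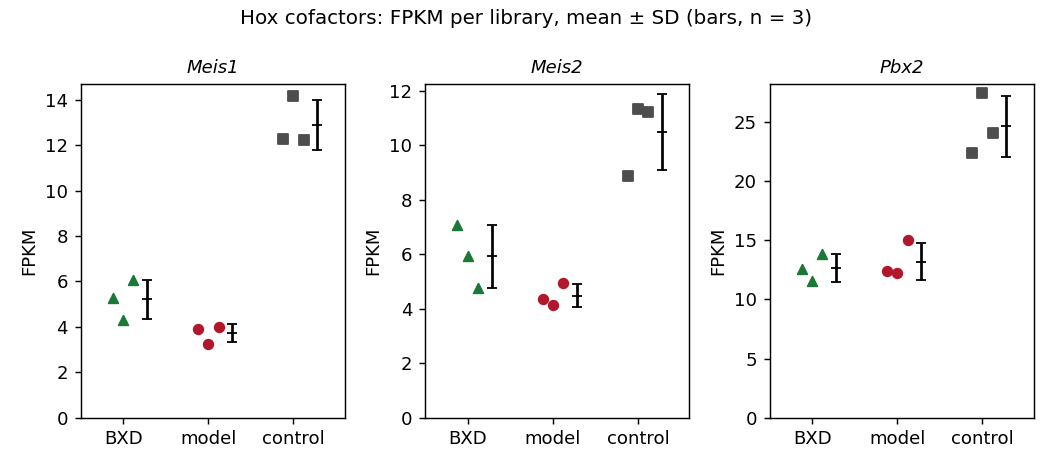
FPKM of the TALE cofactors Meis1, Meis2 and Pbx2 in each library (points) with the mean ± SD of each group (bars, n = 3), BXD left, model in the middle and control right. All control points lie above all stressed points, as at Meis1 with 12.21 to 14.16 FPKM in control.

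Among regulators of Hox chromatin, changes went in both directions. Of 12 trithorax group and H3K27 demethylase genes, 6 were called lower and 1 higher in model, and 4 lower and 2 higher in BXD. Kmt2a, the methyltransferase that maintains Hox transcription, was at 2.35, 2.83 and 3.29 FPKM in BXD, 1.55, 0.97 and 1.80 FPKM in model and 7.28, 6.94 and 7.46 FPKM in control, 4.20-fold lower in model (adjusted p = 0.000248 in edgeR) and 2.22-fold lower in BXD (adjusted p = 0.00237). Kmt2d, an enhancer methyltransferase, was 2.00-fold lower in model (adjusted p = 0.000897), and Ash2l, a core subunit of these complexes, 1.53-fold lower (adjusted p = 0.00166). Of 26 Polycomb group genes, 4 were called higher and 3 lower in model, and 5 higher and 6 lower in BXD. Jarid2, which recruits Polycomb repressive complex 2, rose in model (3.42-fold, adjusted p = 0.00041) and in BXD (2.31-fold, adjusted p = 0.002), at 12.72 to 17.06 FPKM in BXD, 17.14 to 25.31 FPKM in model and 7.33 to 7.98 FPKM in control. Ezh1, a catalytic subunit of that complex, and Cbx6, a chromobox reader, fell by 1.44 and 1.05 on the log2 scale in model (adjusted p = 0.000798 and 0.000746).

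Of 16 tested retinoic acid pathway genes, 2 were called higher and 3 lower in each stressed group. The lower genes in model were Rarg, a retinoic acid receptor (2.23-fold, adjusted p = 0.000481 in edgeR), Rxrb, its dimer partner (1.79-fold, adjusted p = 0.00151), and Crabp2, which carries retinoic acid to the receptor (1.98-fold, adjusted p = 0.0132). Of 18 tested transcription factors of regional mesoderm, 3 were called higher and 6 lower in model, and 3 higher and 4 lower in BXD. In model against control, Tbx2, a T-box repressor, was 2.81-fold lower (adjusted p = 0.00217 in edgeR) and Twist1, a mesenchymal helix-loop-helix factor, 1.66-fold (adjusted p = 0.00245). Prrx1, a fibroblast homeobox factor, was 1.77-fold lower there (adjusted p = 0.0031). In BXD against control, Tbx2 and Twist1 were called lower too (adjusted p = 0.0029 and 0.0253), and Prrx1 was not called (log2 fold change -0.27, adjusted p = 0.191). The ParaHox genes, relatives of the Hox clusters active in gut epithelium, summed to at most 0.4907 CPM in any library, and 0 of 6 could be tested. In model, where 42.2% of all genes were called, the retinoic acid and Polycomb counts (5 of 16 and 7 of 26 in either direction) were below that share, and the TALE, trithorax and regional mesoderm counts (5 of 8, 7 of 12 and 9 of 18) were above it. In BXD, where 30.3% of all genes were called, the retinoic acid count (5 of 16) was near that share. The Polycomb, TALE, trithorax and regional mesoderm counts (11 of 26, 4 of 8, 6 of 12 and 7 of 18) were above it. For lists of this size, these counts in either direction are not far from the shares over all genes. No list was tested as a set.

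Markers of several cell types differed between the groups alongside these genes. Adipocyte markers summed to 5469 to 8035 CPM in BXD, 8044 to 13350 CPM in model and 3158 to 3575 CPM in control, with 6 of 7 called higher in model and 4 in BXD. Brown fat markers summed to 843.3 to 1439 CPM in BXD, 2468 to 6664 CPM in model and 500.7 to 1183 CPM in control, with 4 of 5 called higher in model and 0 in BXD. Smooth muscle markers summed to 5733 to 8912 CPM in BXD, 1892 to 3450 CPM in model and 4080 to 6336 CPM in control, with 5 of 8 called lower in model and 1 called higher in BXD. Nerve and glia markers summed to 209.4 to 347.4 CPM in BXD, 79.5 to 183.8 CPM in model and 231.3 to 504.3 CPM in control, with 4 of 6 called lower in model and 1 in BXD. Fibroblast markers had 2 of 7 called lower in model and 0 in BXD. Striated muscle markers summed to 64.7 to 6563 CPM in BXD, up to 362 CPM in model and up to 41.1 CPM in control, with 6 of 6 called higher in BXD and 0 in model. Each of them was far higher in BXD replicates 1 and 3 than in BXD replicate 2. Ckm, for example, was at 853.1, 7.85 and 483.0 CPM in BXD replicates 1, 2 and 3. Model replicate 2 was the highest model library for each, with Ckm at 53.7 CPM against 1.84 and 0.61 CPM. Neutrophil markers summed to 69.05 to 184.9 CPM in BXD, 161.4 to 299.0 CPM in model and 49.15 to 94.92 CPM in control, with 3 of 5 called higher in each stressed group. Macrophage markers summed to 304.0 to 360.8 CPM in BXD, 422.5 to 438.5 CPM in model and 298.0 to 347.5 CPM in control, with 2 of 5 called higher in model and 0 in BXD. Of 3 tested mesothelium markers, 2 were called higher in model and 0 in BXD. Lymphatic endothelial markers had 1 of 7 called higher and 1 lower in model, and 2 higher in BXD. General endothelial markers had 1 of 7 called lower in each, and lymphocyte markers had 0 of 6 called in either. Over all genes, 21.6% were called higher and 20.6% lower in model, and 16.1% higher and 14.3% lower in BXD. For lists this short, the fibroblast, lymphatic endothelial and general endothelial counts are not far from these shares. The part of these cell types in the Hox differences was not tested.

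In the authors' deposited table, q-values under 0.05 were listed for 17 Hox genes in model against control, 16 of them lower and 1 (Hoxc10) higher. That table listed 12 Hox genes in BXD against control, all lower, and 1 (Hoxc10) in BXD against model. The share of all genes under that q-value was not computed for the authors' table. These counts therefore have no background beside them and say nothing particular to Hox genes.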

How the data were processed

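Per the labels' protocols, poly(A) RNA was sequenced with Illumina chemistry. HISAT2 2.2.4, Bowtie2 2.2.5 and build Rnor_6.0 come from the submitters' processing notes. Neither the counting tool nor its strand setting is given in the sources used here. The authors deposited estimated counts, FPKM and TPM per gene, per the file headers; 88.8% of the counts were whole within 1e-09. The deposited TPM values served only to recompute cluster shares. Log2 fold changes with p-values and q-values were deposited by the authors in another table, per its headers. A further 45 columns of per-sample values were not used. An omeprazole group and 6 further Hox genes of RefSeq (Hoxa13, Hoxb1, Hoxc12, Hoxc13, Hoxd11 and Hoxd12) were not analysed here.

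Counts were rounded, filtered with filterByExpr (14643 of 18964 genes), scaled by trimmed means of M-values (factors 0.873 to 1.15) and fitted with a robust quasi-likelihood model (edgeR 4.0.16, R 4.3.3) over all 9 libraries on group alone. There were 6 residual degrees of freedom, and biological variation (BCV) was 23.3%. An SE was taken as the absolute log2 change over the root of F. FPKM alternatives used limma 3.58.1 on log2(FPKM + 0.1) or log2(FPKM + 1), and DESeq2 1.42.0 was run on the counts. On simulated counts for model against control (14665 genes), 97% of 4-fold and 48% of 2-fold changes were recovered, with 7 false among 151 calls. The simulation changed 100 genes of each size and gave every gene the same spread. In the data 6177 genes were called and the spread differs by gene, so these rates do not carry over to the data. A floor of 3 counts is 0.195 to 0.269 CPM, and counting error only is meant by it. Hox genes with a mean of at least 1 FPKM or called in any comparison were given per library, except 1 gene that is not reported here, and up to 3 called genes with the smallest p per list in model against control were named. Members, lists, position classes and tests were chosen with earlier results of these data known. Promoter windows and start sites are from RefSeq on GRCr8, gene coordinates from the authors' table on Rnor_6.0.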

Additional observations from a re-analysis of the deposited data

How the results depend on the processing

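The 28 tested Hox genes kept their direction under all alternatives wherever they were called, and of the calls 10 of 16 in model against control and 3 of 12 in BXD against control stood under all of them. One uncalled value turned and was then called, Hoxb8 in model against control at -1.61 without model replicate 1 (range over left-out libraries -1.61 to 1.05). With library size alone the Hox median in model against control was -1.21, and the median of all genes moved to -0.28. Leaving out a replicate gave 10 to 18 Hox calls and 4317 to 6890 calls over all genes in model against control. In BXD against control it gave 4 to 13 Hox calls and 2728 to 4775 calls over all genes. In BXD against model it gave 0 to 1 Hox calls, 1 to 154 calls over all genes and a Hox median of -0.0625 to 0.285. In BXD against control, limma gave a Hox median of -1.01 on log2(FPKM + 0.1), with the filter and without it, and 19 Hox calls on log2(FPKM + 1). Calls over all genes on log2(FPKM + 1) are not given here for that comparison, so the 19 has no share beside it. In BXD against model, over all genes edgeR made 9 calls, DESeq2 1107 (1 of them Hox), edgeR without a filter 16, limma 32 on log2(FPKM + 0.1) and 28 on log2(FPKM + 1), and a fit on the 2 groups alone 1. The cause of these shifts was not tested. Deviations of same-numbered libraries from their group means had correlations of -0.43 to 0.086. Differently numbered libraries were not compared, so these values cannot show whether the numbers pair the libraries. With the replicate number as a block, 7 Hox genes were called in BXD against control and 2 genes in all in BXD against model. In model against control Hoxa5, Hoxa6, Hoxb3, Hoxb4 and Hoxb5 were no longer called with the block. Its calls over all genes are not given here for the comparisons against control, so these Hox changes have no share beside them.

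With CPM in place of FPKM, HoxA made up 29.7% of the summed Hox level in BXD, HoxB 28.2% in control, HoxC 13.7% in model and 11.004% in control, and HoxD 30.8% in BXD and 38.3% in control. On that scale anterior genes made up 20.8%, 16.6% and 21.3% in BXD, model and control, central genes 55.0%, 54.5% and 58.3%, and posterior genes 28.9% in model and 20.3% in control. With the HoxA copies summed, an alternative chosen after seeing the data, HoxA made up 44.8%, 43.9% and 35.7%, HoxB 23.8% in BXD and 26.5% in control, HoxC 9.40%, 12.2% and 8.27%, and HoxD 22.0%, 21.0% and 29.5%. Anterior genes then made up 10.3% in model, central genes 53.9%, 52.1% and 57.8%, and posterior genes 32.4%, 37.6% and 26.7% in BXD, model and control. Depth limits the 5 untested Hox genes and the folds of Hoxd3 and Hoxd10, whose model libraries hold at most 11 counts.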
